A study of Homo sapiens with 18 samples.

Results

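Transcripts of 38 genes of glycolysis, glucose transport and the hypoxia response were followed in A375 cells, a human melanoma line, treated with IMD-0354, known as a blocker of IKKβ, the kinase that activates NF-κB signalling. The members were taken by symbol from a table of 60504 Ensembl genes, and each symbol matched 1 gene. They comprise 4 transporters, 17 glycolytic enzymes, 5 genes that control the flow into or out of glycolysis, and 12 other targets of the hypoxia response. Of the 38 members, 37 reached a level of 1 TPM (transcripts per 1000000) in at least 3 libraries and were tested. EGLN3, a prolyl hydroxylase that marks hypoxia-inducible factor for degradation, was at 0 in nearly all libraries, with a highest value of 0.64 TPM, and was not tested.

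The study held 18 libraries in 6 groups of 3, all from A375 cells in high-glucose medium. At 24 h there were untreated cells and cells given IMD-0354 at 0.32, 0.63 or 1.25 µM, and at 48 h there were untreated cells and cells given 0.63 µM. Whether the untreated cells received a vehicle is not in the labels, nor do these say that the replicates were separate cultures, so p-values measure the spread between these libraries, which may be technical. Libraries read the 3′ ends of polyadenylated RNA, and the authors deposited TPM without read counts, so the depth is unknown.

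Glycolysis splits glucose into pyruvate, and lactate dehydrogenase turns pyruvate into lactate, which leaves the cell through monocarboxylate transporters. Under low oxygen the transcription factor HIF-1, formed by HIF1A and ARNT, binds a short DNA element at many of these genes and raises their transcription along with genes for blood vessel growth, pH control and mitophagy. Tumour cells such as melanoma often run glycolysis at a high rate even with oxygen present.

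A form of the core of that HIF element, the letters ACGTG, was searched on both strands of the 300 bases around each annotated gene start (RefSeq, GRCh38.p14). The palindrome CACGTG thus counts as 2 overlapping matches, and other forms of the core were not searched. ACGTG lay in a window of 11 of the 17 enzyme genes (64.7%) and of 5 of the 9 other hypoxia targets that had a window (55.6%), against 24.9% of 27305 genes. Counted by window, it lay in 15 of 37 for the enzymes and in 7518 of 35116 (21.4%) for all genes, and some genes have several windows. A match is a description of the letters and no evidence of binding. Of these promoters, 3 are shown, LDHA and PGK1 because their transcripts were called lower in treated cells. BNIP3 is shown because its transcript was not called in any comparison. It is no unchanged control, as every library at 1.25 µM was below every untreated library of 24 h. Its log2 fold change there was -0.77 (limma adjusted p = 0.0597). Each is the stretch upstream of the start that overlaps no annotated exon, with the matches in capitals.
LDHA, chr11:18394313-18394387, plus strand: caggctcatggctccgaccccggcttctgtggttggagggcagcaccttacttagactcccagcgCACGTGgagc
PGK1, chrX:78103998-78104173, plus strand: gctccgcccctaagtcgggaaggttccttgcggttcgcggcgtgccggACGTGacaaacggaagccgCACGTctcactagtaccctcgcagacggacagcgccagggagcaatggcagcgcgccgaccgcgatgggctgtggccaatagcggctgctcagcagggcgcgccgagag
BNIP3, chr10:131982014-131982173, minus strand: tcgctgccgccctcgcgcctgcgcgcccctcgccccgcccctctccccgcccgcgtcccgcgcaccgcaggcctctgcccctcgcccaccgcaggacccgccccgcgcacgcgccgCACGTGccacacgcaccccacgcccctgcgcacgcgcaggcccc
The palindrome began 185 bases before the gene start in LDHA and 134 bases before it in BNIP3, and the matches in PGK1 began 202 and 183 bases before the start. The windows of PGAM1 and PKM, whose transcripts were also lower, held no match, so the called enzymes included promoters with and without these letters.

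In these genes 2 untreated libraries stood apart. In untreated 24 h replicate 2, GAPDH was at 25.5 TPM while the other 17 libraries ranged from 352 to 690 TPM. In that library 6 of the 17 enzymes (PFKL, PFKM, TPI1, GAPDH, ENO1 and ENO2) were below every other library, as were 9.86% of all genes tested, and ENO2 was at 0.26 TPM against at least 6.56 TPM elsewhere. LDHB, PGK1 and GPI were not low there, at 702, 233 and 86.3 TPM. PDHA1 (132 TPM) and ADM (14.7 TPM) were above every other library there, as were 14.9% of all genes tested. In untreated 48 h replicate 3, 9 members were above every other library, against 3.49% of all genes: SLC16A3, PFKL, ALDOC, PGK1, ENO2, CA9, BNIP3, BNIP3L and P4HA1. CA9, the membrane carbonic anhydrase widely used as a mark of hypoxia, was at 10.8 TPM there and at most at 3.96 TPM in the other libraries, and VEGFA was at its lowest, 5.57 TPM. The part that these 2 libraries play in each result was not tested beyond leaving them out, and those values stand beside the results.

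**Figure D1:**
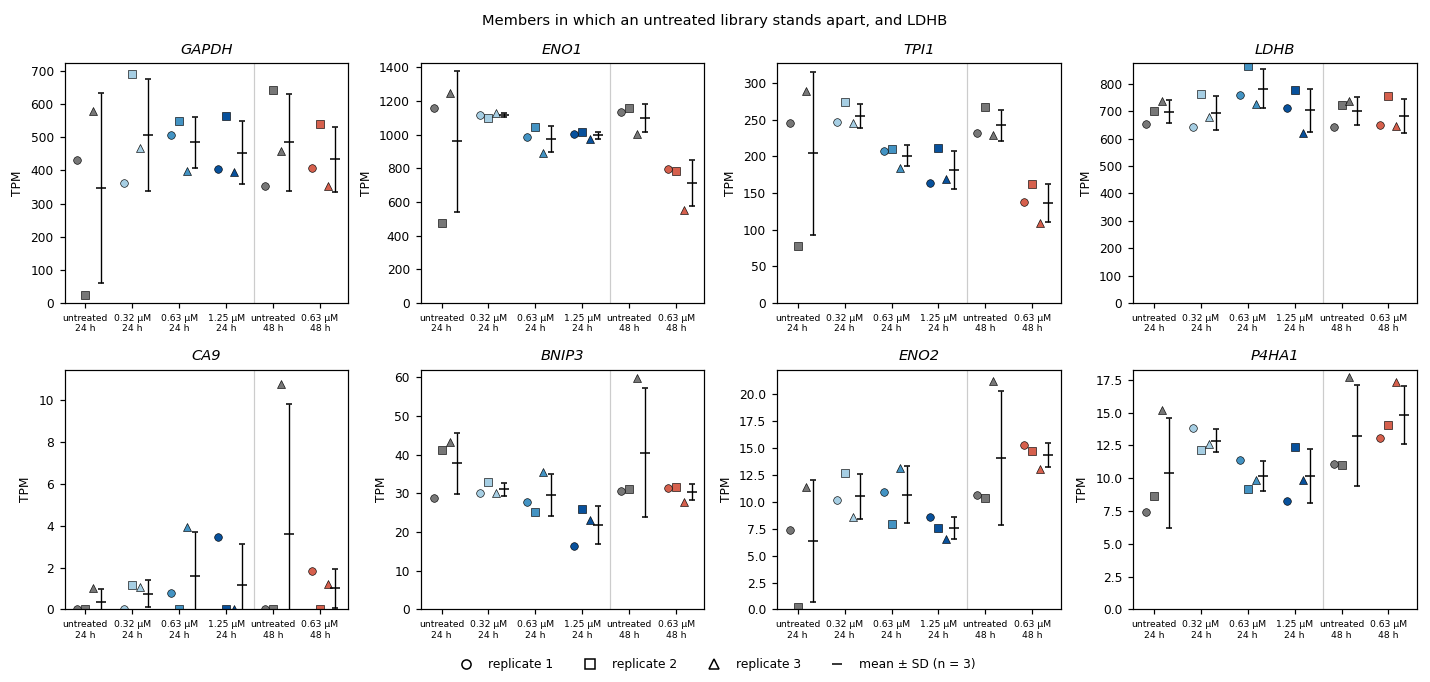
TPM (vertical axis, linear, from 0) of 8 members in each of the 18 libraries by group (horizontal axis), with replicates 1, 2 and 3 as circles, squares and triangles and the mean ± SD (n = 3) in black. Untreated 24 h replicate 2 is lowest for GAPDH (25.5 TPM), ENO1, TPI1 and ENO2, untreated 48 h replicate 3 is highest for CA9 (10.8 TPM), BNIP3, ENO2 and P4HA1, and LDHB stays between 621 and 864 TPM.

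As for cell identity, SOX10 (8.29 to 34.7 TPM) and MITF (2.87 to 16.8 TPM), transcription factors of the melanocyte lineage, were present in every library. The pigment genes TYR and TYRP1 were at 0 throughout, and PMEL, MLANA, DCT and S100B reached at most 2.37 TPM. Of the markers of other cell types, the keratin KRT10 was at 27.7 to 103 TPM and higher at 1.25 µM (72.7 to 103 TPM) than in untreated cells at 24 h (39.1 to 44.9 TPM; limma adjusted p = 0.00158). The other keratinocyte, fibroblast and leukocyte markers reached at most 1.14 TPM, and KRT1, PTPRC and CD3E were at 0. The summed level of the 8 melanocyte markers was 16.0 to 19.7 TPM in cells given 0.63 µM for 48 h and 31.5 to 35.4 TPM in untreated cells at 48 h, and MITF fell in this comparison (-1.76, limma adjusted p = 0.00171). The part of KRT10 and of these markers in the results was not tested. The 4 most abundant transcripts of chromosome 21 took 13.1% to 24.8% of all TPM in a library, which moves every other value.

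Of the transporters, SLC2A3 (GLUT3), the high-affinity glucose carrier, rose. In untreated cells at 24 h its level was 10.9, 25.5 and 19.4 TPM, and at 0.32 µM it was 18.5, 16.3 and 17.97 TPM. It was 37.3, 34.2 and 62.0 TPM at 0.63 µM and 88.5, 54.7 and 61.3 TPM at 1.25 µM. Every library at the 2 higher doses was above every untreated library and every library at 0.32 µM. At 48 h it was 13.1, 10.1 and 22.0 TPM in untreated cells and 73.4, 43.9 and 70.3 TPM at 0.63 µM, again without overlap. The log2 fold change of TPM + 1 was 1.86 ± 0.33 (SE, n = 3 against 3) at 1.25 µM (limma, Benjamini-Hochberg adjusted p over all genes = 0.00197) and 2.02 ± 0.33 at 48 h (limma adjusted p = 0.00134). At 0.63 µM and 24 h it was 1.24 ± 0.33 and was not called (limma adjusted p = 0.0624). A model of the compared groups alone lost the call at 1.25 µM (limma adjusted p = 0.0792). SLC2A14, a near-identical copy of SLC2A3, was listed at 0 in all 18 libraries.

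SLC2A1 (GLUT1), the widespread basal glucose carrier, did not pass in any comparison. Its level ran from 38.5 to 53.4 TPM in untreated cells at 24 h, from 32.03 to 38.4 TPM at 1.25 µM, from 30.4 to 39.6 TPM in untreated cells at 48 h and from 24.6 to 28.7 TPM at 0.63 µM for 48 h. The treated libraries thus lay just below the untreated ones in both comparisons, with log2 fold changes of -0.31 (limma adjusted p = 0.289) and -0.37 (limma adjusted p = 0.233). The ratio of SLC2A3 to SLC2A1 in TPM moved from 0.43 ± 0.21 (SD, n = 3) in untreated cells at 24 h to 1.12 ± 0.33 at 0.63 µM and 1.91 ± 0.39 at 1.25 µM. At 48 h it moved from 0.42 ± 0.12 to 2.38 ± 0.76. TPM is divided by transcript length, which 3′ end libraries do not need, so the ratio is read between groups and not as the share of either carrier.

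The lactate carriers were not called. SLC16A1 (MCT1) was at 32.4 to 73.5 TPM over all libraries, with a log2 fold change of -0.47 at 48 h (limma adjusted p = 0.218). SLC16A3 (MCT4), the carrier of highly glycolytic cells, was at 16.1, 13.6 and 21.03 TPM in untreated cells at 48 h and at 10.3, 4.51 and 4.61 TPM at 0.63 µM. These groups did not overlap, and the log2 fold change was -1.32 ± 0.45 (limma adjusted p = 0.0866).

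**Figure D2:**
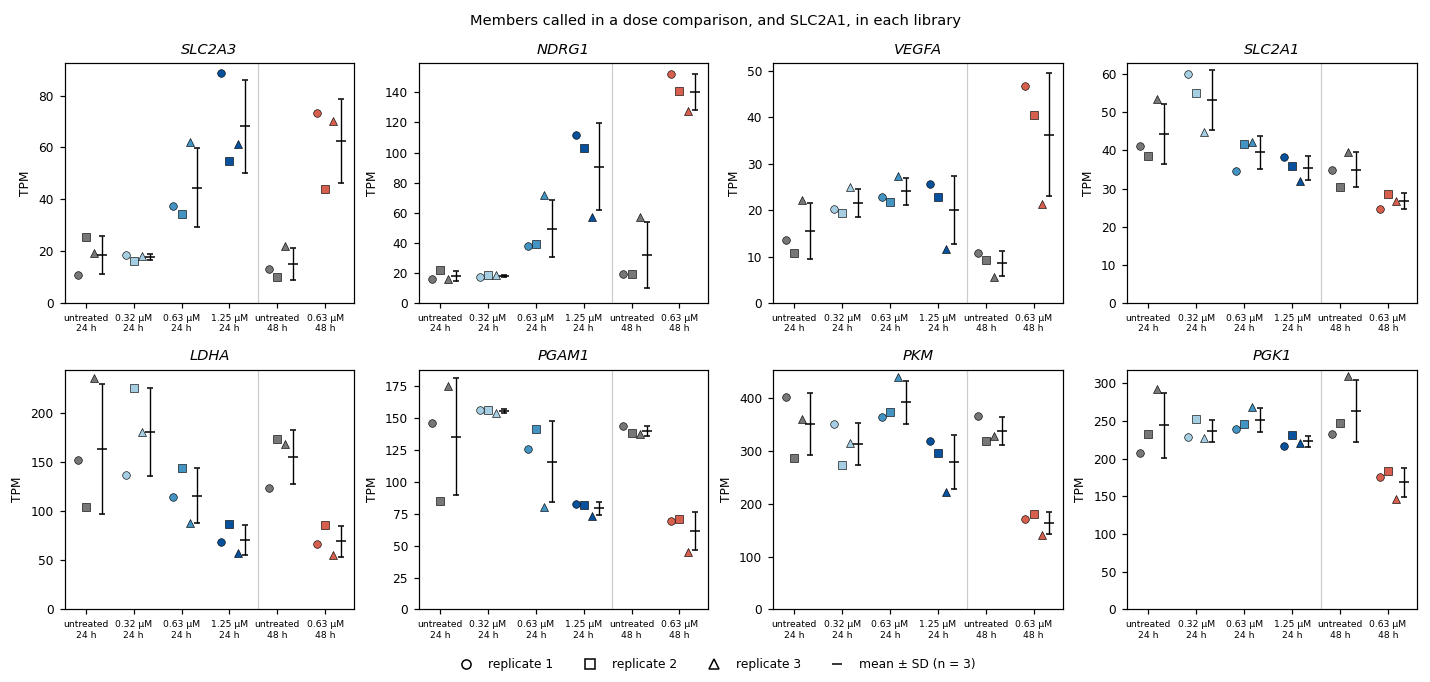
TPM (vertical axis, linear, from 0) of the 7 members called in at least 1 dose comparison and of SLC2A1, in each library by group (horizontal axis), with replicates as circles, squares and triangles and the mean ± SD (n = 3) in black. SLC2A3 and NDRG1 are higher at 0.63 and 1.25 µM than in untreated cells at 24 h, VEGFA is higher at 48 h, and LDHA, PGAM1, PKM and PGK1 are lower at 48 h.

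After 48 h at 0.63 µM, 4 of the 17 glycolytic enzymes fell and 0 rose. Over all genes 7.63% were called, 1.95% higher and 5.68% lower, with a median log2 fold change of -0.15. The enzymes' median was -0.17, close to that of all genes, so the middle enzyme moved little more than the middle gene. The mean log2(TPM + 1) of the 17 enzymes was 6.23 ± 0.15 (SD, n = 3) in untreated cells at 48 h and 5.88 ± 0.14 at 0.63 µM. The 4 that fell, PGK1, PGAM1, PKM and LDHA, belong to the later payoff phase of the pathway or to the lactate step that follows it. Also of the payoff phase, GAPDH (-0.14), ENO1 (-0.64) and ENO2 (0.10) were not called. Over all 37 members 3 rose (SLC2A3, NDRG1 and VEGFA) and 4 fell.

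PKM, pyruvate kinase, makes pyruvate in the last step of glycolysis. It was at 368, 319 and 328 TPM in untreated cells at 48 h and at 171, 180.1 and 141 TPM at 0.63 µM. All treated libraries were below all untreated ones, by -1.04 ± 0.17 in log2 (limma adjusted p = 0.00108). At 24 h it had been at 403, 288 and 362 TPM in untreated cells and at 365, 374 and 440 TPM at the same dose, with overlap. At 1.25 µM it was at 319, 297 and 223 TPM and overlapped the untreated cells too.

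PGAM1, phosphoglycerate mutase, was at 144, 138 and 137 TPM in untreated cells at 48 h and at 69.6, 70.4 and 44.7 TPM at 0.63 µM, a log2 fold change of -1.20 ± 0.25 (limma adjusted p = 0.00696). At 24 h it was at 146, 85.2 and 175 TPM in untreated cells and at 82.9, 81.6 and 73.5 TPM at 1.25 µM. The untreated value nearest to the treated ones is that of replicate 2, which stands apart. The fold change at 1.25 µM was -0.70 ± 0.25 (limma adjusted p = 0.0796) and without that library -1.002 (limma adjusted p = 0.0102). PGAM4, a near-identical copy, was listed at 0 in all libraries.

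LDHA, the lactate dehydrogenase subunit of glycolytic tissue, fell at both times. It was at 152, 104 and 235 TPM in untreated cells at 24 h, at 136, 225 and 180.0 TPM at 0.32 µM, at 114, 144 and 88.1 TPM at 0.63 µM and at 68.8, 86.5 and 56.9 TPM at 1.25 µM. The libraries at 1.25 µM were below all others of 24 h, while those at 0.63 µM overlapped the untreated ones. At 48 h it was at 124, 174 and 169 TPM in untreated cells and at 66.8, 85.7 and 55.0 TPM at 0.63 µM, without overlap. The log2 fold change was -1.14 ± 0.29 at 1.25 µM (limma adjusted p = 0.0171) and -1.16 ± 0.29 at 48 h (limma adjusted p = 0.0186). The call at 1.25 µM was lost without untreated replicate 3 (0.0654), without 1.25 µM replicate 3 (0.0757), without untreated replicates 2 and 3 (0.0948) and in a model of the compared groups alone (0.149). The call at 48 h was lost without untreated replicate 2 (0.0807) or 3 (0.0661), without treated replicate 1 (0.0534) or 3 (0.101) and after quantile normalization (0.0538), all limma adjusted p-values.

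LDHB, the other subunit, varied least of all members over the 18 libraries, with a coefficient of variation of 8.77% and levels of 621 to 864 TPM. Its log2 fold change was 0.01 at 1.25 µM and -0.04 at 48 h, with a standard error of 0.12. The ratio of LDHA to LDHB was 0.233 ± 0.085 (SD, n = 3) in untreated cells at 24 h, 0.258 ± 0.042 at 0.32 µM, 0.146 ± 0.023 at 0.63 µM and 0.0999 ± 0.010 at 1.25 µM. At 48 h it was 0.220 ± 0.025 in untreated cells and 0.1004 ± 0.014 at 0.63 µM, so the short high dose and the longer lower dose ended at close values.

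**Figure D3:**
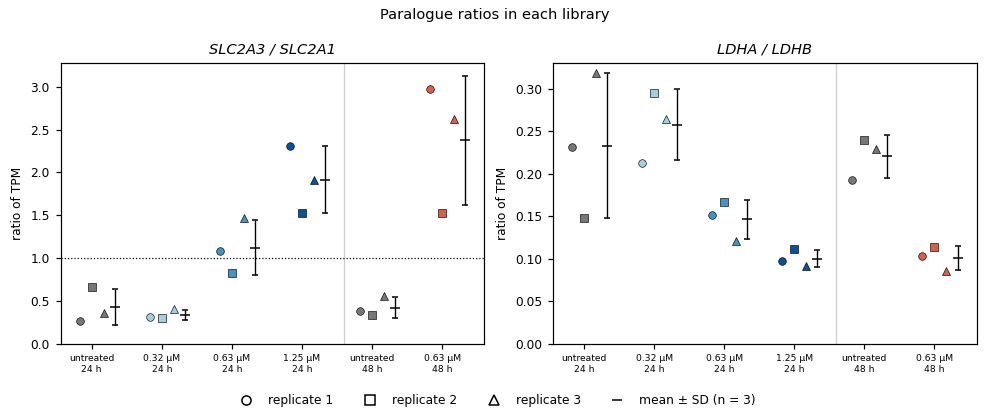
Ratio of the TPM of SLC2A3 to SLC2A1 (left) and of LDHA to LDHB (right; both axes linear, from 0) in each library by group, with replicates as circles, squares and triangles and the mean ± SD (n = 3) in black; the dotted line on the left marks equal TPM. The glucose carrier ratio is 1.91 at 1.25 µM and 2.38 at 48 h, and the lactate dehydrogenase ratio is 0.0999 and 0.1004, in both cases outside the range of the untreated libraries.

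PGK1, phosphoglycerate kinase, was at 232, 247 and 309.9 TPM in untreated cells at 48 h and at 175, 184 and 147 TPM at 0.63 µM. The groups did not overlap, and the log2 fold change was -0.64 ± 0.15 (limma adjusted p = 0.0143). The highest untreated value is that of replicate 3, which stands apart, and without it the change was -0.51 (limma adjusted p = 0.0714). Without treated replicate 3 the limma adjusted p was 0.0807. After median-of-ratios scaling, which brings the median of all genes at 48 h from -0.15 to 0, PGK1 was at -0.43 (limma adjusted p = 0.101), while PKM, PGAM1 and LDHA kept their calls. Quantile normalization gave -0.37 for PGK1 (limma adjusted p = 0.154), and the call was also lost in limma without a mean-variance trend (adjusted p = 0.0501) and with the compared groups alone (0.0551). These 2 scalings also turned the split of calls over all genes at 48 h from 25.5% higher to 49.4% and 47.5% higher.

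The remaining enzymes were not called at 48 h. ENO1 had the highest mean TPM of the enzymes over all libraries. It was at 1138, 1157 and 1007 TPM in untreated cells and at 799, 782 and 555 TPM at 0.63 µM, a log2 fold change of -0.64 ± 0.25 (limma adjusted p = 0.147). TPI1 was at 232, 267 and 229 TPM and at 137, 162 and 109 TPM, a change of -0.84 ± 0.33 (limma adjusted p = 0.141). Neither pair of groups overlapped. The standard errors come from all 18 libraries, and without untreated 24 h replicate 2, in which both genes were low, the limma adjusted p was 0.00304 for ENO1 and 0.00171 for TPI1 with the same fold changes. In all, 3 members were higher without overlap at 48 h, where 9.23% of all genes were. Of the 17 enzymes, 7 were lower without overlap at 48 h, where 21.3% of all genes were: ALDOA (-0.43), TPI1, PGK1, PGAM1, ENO1, PKM and LDHA.

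Apart from ALDOA (-0.43) and TPI1 (-0.84), the upstream enzymes and the less abundant isoforms had log2 fold changes from -0.30 (ALDOC) to 0.34 (PFKM) at 48 h. The all-gene median was -0.15. The hexokinases HK1 and HK2, which trap glucose in the cell, were at 0.24 and 0.13, and GPI was at -0.17. The phosphofructokinases PFKL, PFKM and PFKP, which catalyse the committed step, were at -0.17, 0.34 and -0.06. GAPDH was at -0.14 ± 0.75, with a standard error widened by untreated 24 h replicate 2, and the sign of its change turned under median-of-ratios scaling (0.07) and quantile normalization (0.13). ALDOC was at or under 4.02 TPM in every library, and ENO2 was at 0.10. Both scalings also turned the signs of GPI, PFKL, PFKP and LDHB at 48 h. The summed TPM of the 17 enzymes was 3868, 4219 and 4022 in untreated cells at 48 h and 3014, 3252 and 2492 at 0.63 µM, without overlap. This sum is read between groups only, since TPM levels of different genes compare poorly here.

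At 24 h and 1.25 µM, 1 of the 17 enzymes fell (LDHA) and 0 rose, where 11.3% of all genes were called (4.94% higher, 6.36% lower). Over all 37 members 2 rose (SLC2A3 and NDRG1) and 1 fell. The enzymes' median log2 fold change was 0.03 against -0.01 for all genes. Of the enzymes, 4, GPI (-0.37), PFKP (-0.58), PGAM1 and LDHA, were lower without overlap, where 13.7% of all genes were. HK2 was higher without overlap, as were 12.4% of all genes, at 6.57, 9.73 and 8.87 TPM against 4.16, 4.48 and 5.21 TPM, a change of 0.73 ± 0.26 (limma adjusted p = 0.0890). Without untreated replicate 2 the enzymes' median became -0.26, 13 of 17 were below 0 in place of 7, and PGAM1 and TPI1 joined LDHA as called. TPI1 turned from 0.03 to -0.56 (limma adjusted p = 0.0451), ENO1 from 0.17 to -0.27 and GAPDH from 1.25 to -0.16 in this comparison. PFKL (0.04 to -0.38), PFKM (0.17 to -0.24) and ENO2 (0.75 to -0.26) turned too. Outside the enzymes, so did SLC16A3 (0.02 to -0.35), P4HA1 (0.01 to -0.08) and ADM (-0.18 to 0.11). With 1 library left out, ENO1, GAPDH, ENO2 and ADM turned only without untreated replicate 2. TPI1, PFKL, PFKM, SLC16A3 and P4HA1 also turned without at least 1 other library, so their direction is not settled.

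At 0.63 µM and 24 h, 0 of the 37 members were called by limma, where 2.18% of all genes were (1.36% higher, 0.824% lower). An unadjusted limma p under 0.05 was reached by 7 members and by 2672 of the 14936 genes tested. Removing untreated replicate 2 turned GAPDH from 1.36 to -0.06, TPI1 from 0.18 to -0.41 and ENO1 from 0.14 to -0.30. Without overlap, 8 members were higher, where 10% of all genes were, and 1 was lower, where 9.26% were. Among the 8 were HK2 (0.73), PFKL (0.88) and PDK1 (0.62). Recomputing TPM without the 4 chromosome 21 transcripts turned the split of all calls at this dose from 62.3% to 44% higher. At 0.32 µM limma called 0 of the 37 members, where 0.0268% of all genes were called. An unadjusted p under 0.05 was reached by 0 members and by 912 of all genes tested.

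**Figure D4:**
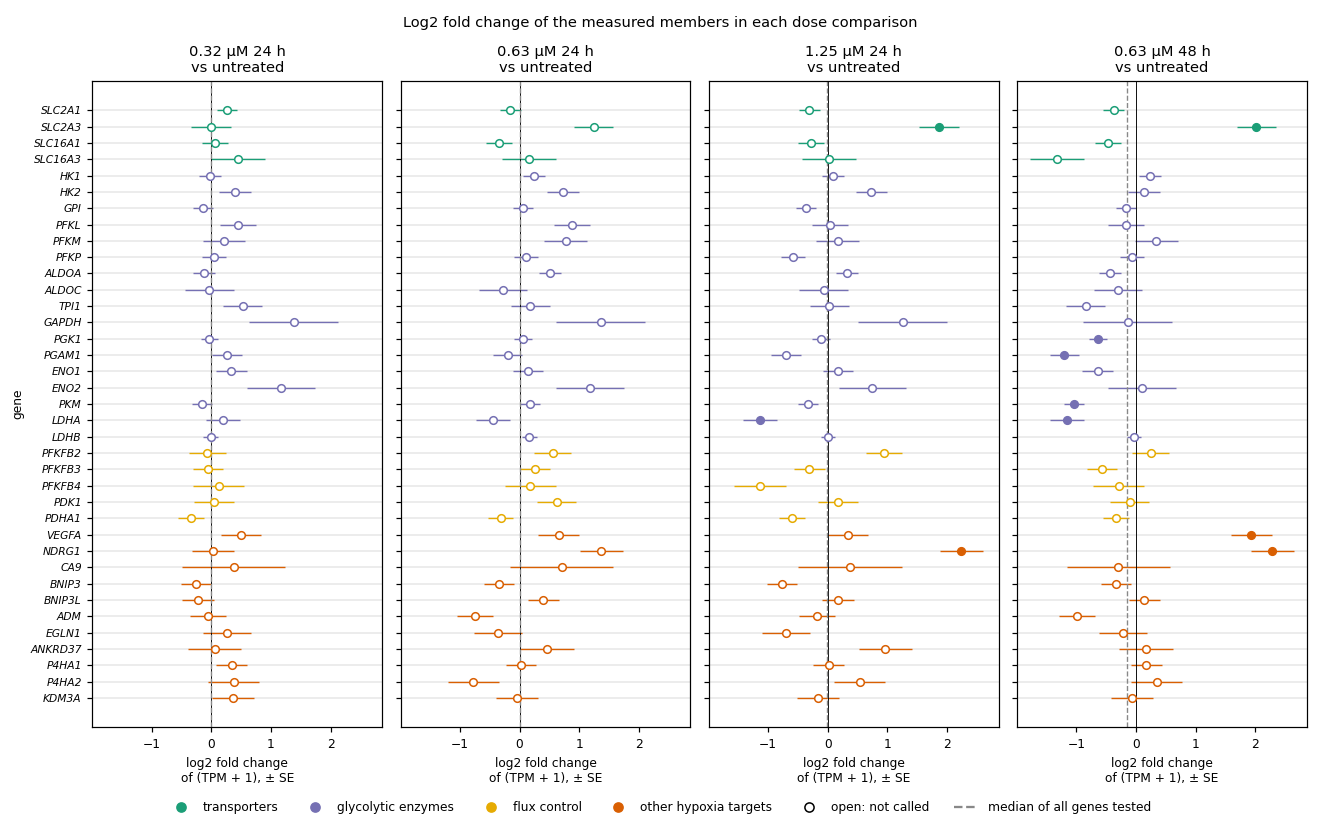
Log2 fold change of TPM + 1 with its standard error (horizontal axis) for the 37 tested members (vertical axis, coloured by role) in the 4 comparisons of a dose with untreated cells of the same time; filled points were called at a limma adjusted p under 0.05 and the dashed line is the median of all genes tested. No member is called at 0.32 or 0.63 µM and 24 h, 3 are called at 1.25 µM and 7 at 48 h, and ENO2 and GAPDH have wide errors.

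The genes that steer flow were not called in any dose comparison. PFKFB2, PFKFB3 and PFKFB4 make or degrade fructose 2,6-bisphosphate, the strongest activator of phosphofructokinase. PFKFB2 was at 2.38, 3.08 and 3.15 TPM at 1.25 µM against 0.76, 0.91 and 1.41 TPM, a change of 0.94 ± 0.30 (limma adjusted p = 0.0574). PFKFB4 moved the other way, at 1.12, 0.74 and 1.14 TPM against 3.44, 4.31 and 2.56 TPM, a change of -1.14 ± 0.43 (limma adjusted p = 0.103). In neither gene did the groups overlap, and both lie near the level of the filter. PFKFB3 was at -0.31 at 1.25 µM and -0.57 at 48 h. PDK1, the kinase that closes pyruvate dehydrogenase, was at 0.18 and -0.11, and PDHA1, the subunit it phosphorylates, at -0.59 (limma adjusted p = 0.0925) and -0.33. The highest untreated PDHA1 value at 24 h, 132 TPM, is that of replicate 2, which stands apart.

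Of the 11 other hypoxia targets tested, 2 rose at 48 h and 0 fell (1.95% and 5.68% of all genes), and 1 rose at 1.25 µM (4.94% of all genes). NDRG1, a stress and hypoxia-induced protein tied to growth arrest and differentiation, was at 15.8, 21.8 and 15.9 TPM in untreated cells at 24 h and at 17.2, 18.4 and 18.4 TPM at 0.32 µM. It was at 37.6, 39.3 and 71.5 TPM at 0.63 µM and at 112, 103 and 57.4 TPM at 1.25 µM, above all untreated libraries of 24 h. At 48 h it was at 152, 141 and 128 TPM at 0.63 µM against 19.3, 19.5 and 57.2 TPM, where the highest untreated value is again replicate 3. The log2 fold change was 2.24 ± 0.36 at 1.25 µM (limma adjusted p = 0.000887) and 2.29 ± 0.36 at 48 h (limma adjusted p = 0.000882), and 2.79 at 48 h without that library. At 0.63 µM and 24 h it was 1.37 ± 0.36 (limma adjusted p = 0.0564), and without untreated 48 h replicate 3, which enters only the shared spread, the adjusted p was 0.0181.

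VEGFA, the main growth factor for blood vessels, was at 46.9, 40.6 and 21.4 TPM at 0.63 µM and 48 h against 10.8, 9.37 and 5.57 TPM, a log2 fold change of 1.93 ± 0.34 (limma adjusted p = 0.00229). At 24 h it overlapped between groups at every dose, with 13.5, 10.8 and 22.3 TPM in untreated cells and 25.6, 22.9 and 11.7 TPM at 1.25 µM. SLC2A3, NDRG1 and VEGFA at 48 h, and NDRG1 at 1.25 µM, kept their calls under all 32 alternatives. The enzymes PGAM1 and PKM, lower at 48 h, kept theirs under all 32 too.

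None of the other targets was called. BNIP3, a mitophagy receptor, was at 16.4, 25.9 and 23.3 TPM at 1.25 µM against 28.8, 41.2 and 43.4 TPM, a change of -0.77 ± 0.25 (limma adjusted p = 0.0597). Its relative BNIP3L was at 0.17 in the same comparison. ADM, the vasodilator peptide adrenomedullin, was at 4.47, 2.16 and 2.78 TPM at 48 h against 6.29, 5.57 and 9.57 TPM, a change of -0.98 ± 0.30 (limma adjusted p = 0.0578), and both of these genes were thus lower without overlap. ANKRD37 was at 7.28, 10.6 and 6.60 TPM at 1.25 µM against 3.34, 3.16 and 4.43 TPM, higher without overlap but not called (0.96, limma adjusted p = 0.186), and its change at 48 h was 0.17. EGLN1, the main oxygen sensor among the prolyl hydroxylases, was at -0.71 and -0.21 and the histone demethylase KDM3A at -0.17 and -0.07. The collagen prolyl hydroxylases P4HA1 and P4HA2 were at 0.01 and 0.54 at 1.25 µM and at 0.17 and 0.35 at 48 h. CA9 was at 0 in 2 of 3 untreated libraries at 48 h and at 10.8 TPM in the third, so its fold change of -0.30 rests on replicate 3.

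Set side by side at 48 h, the enzymes had 0 higher and 4 lower of 17 and a median of -0.17, and the other hypoxia targets had 2 higher and 0 lower of 11 and a median of 0.14, while all genes had a median of -0.15, with 1.95% called higher and 5.68% lower. Median-of-ratios scaling moved these medians to 0.02 and 0.35, with 3 enzymes still lower and the same count of targets higher. At 1.25 µM the medians were 0.03 and 0.17, and that of the enzymes became negative without untreated 24 h replicate 2, as given above. By library at 48 h, the mean log2(TPM + 1) of the 12 targets was 2.89, 2.92 and 3.64 in untreated cells. It was 3.54, 3.37 and 3.33 at 0.63 µM, so untreated replicate 3, which stands apart, was above every treated library. The mean of the 17 enzymes was 6.12, 6.17 and 6.40 against 5.90, 6.00 and 5.73. The difference between the 2 lists was not tested. Within the targets only NDRG1 and VEGFA were called, and their values lie far above the median of 0.14. Of the 11 targets, 6 had a log2 fold change above 0 at 48 h, as had 5762 of the 14936 genes tested.

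The change in effect of 0.63 µM between 24 and 48 h was tested directly, and limma called 0 of the 37 members (0.0335% of all genes). An unadjusted p under 0.05 was reached by 10 members and by 1784 of the 14936 genes tested. All 17 enzymes had a more negative effect at 48 h than at 24 h, as had 9084 of the 14936 genes tested. The enzymes had a median difference of -0.72 against -0.17 for all genes, and the hypoxia targets had a median of 0.00. The count of enzymes falls to 15 of 17 with a median of -0.34 without untreated 24 h replicate 2, and to 14 of 17 with -0.26 without both libraries that stand apart. Median-of-ratios scaling turned the sign of ALDOC, HK1, LDHB and PFKP among the enzymes, and quantile normalization that of ALDOC, HK1 and PFKP. PKM had the smallest p of the members, at -1.22 ± 0.24 (limma adjusted p = 0.0793), and under library weights it was called.

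Between neighbouring doses at 24 h limma called 0 members from 0.32 to 0.63 µM (0.556% of all genes) and 0 from 0.63 to 1.25 µM (1.51%). An unadjusted p under 0.05 was reached by 8 members and 2082 of the 14936 genes tested in the first step. In the second step it was reached by 9 members and 2299 genes. From 0.32 to 0.63 µM NDRG1 was at 1.35 (limma adjusted p = 0.107), SLC2A3 at 1.25 (0.110) and ALDOA at 0.64 (0.137). From 0.63 to 1.25 µM PFKP was at -0.69 (limma adjusted p = 0.0996), P4HA2 at 1.31 (0.136), PFKFB4 at -1.32 (0.140) and PKM at -0.50 (0.148). Untreated cells at 48 against 24 h had 0 members called by limma (0.0134% of all genes). An unadjusted p under 0.05 was reached by 1181 of all genes tested and by 4 members. These were PFKL (0.97), ALDOC (1.12), ENO2 (1.49) and VEGFA (-0.77). PFKL and ENO2 are low in untreated 24 h replicate 2, and all 4 are at their extreme in untreated 48 h replicate 3.

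Neighbouring pathways were covered by 7 lists of 113 genes, of which 87 were tested. Among 28 further hypoxia targets, 23 were tested, and 3 rose and 3 fell at 48 h, with a median of -0.11 (1.95% and 5.68% of all genes). At 1.25 µM 3 rose and 2 fell (4.94% and 6.36% of all genes). Without untreated 24 h replicate 2 these counts became 3 and 6 at 48 h and 2 and 1 at 1.25 µM, and without untreated 48 h replicate 3 they became 3 and 1 at both. The 3 genes that rose at 48 h in the full set also rose at 0.63 and 1.25 µM at 24 h. STC2, a secreted glycoprotein, was at 14.9 to 19.5 TPM at 48 h against 2.55 to 3.54 TPM, a change of 2.22 ± 0.23 (limma adjusted p = 2.62e-05). IGFBP3, which binds insulin-like growth factors, was at 20.6 to 30.2 TPM against 1.07 to 1.53 TPM, a change of 3.47 ± 0.42 (limma adjusted p = 0.000104). DDIT4, an inhibitor of mTORC1, was at 60.1 to 76.8 TPM against 21.02 to 29.1 TPM, a change of 1.42 ± 0.21 (limma adjusted p = 0.000699). At 24 h DDIT4 was higher at 0.63 µM (61.0 to 80.5 TPM) than at 1.25 µM (34.0 to 47.6 TPM), a change of -0.92 between them (limma adjusted p = 0.0420). Those that fell at 48 h were PLOD1 (-1.004), a lysyl hydroxylase of collagen, ZNF395 (-0.91) and FUT11 (-0.82).

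Of 13 tested genes of the HIF machinery, 0 were called at 24 h in limma, where up to 11.3% of all genes were (1.25 µM), and 2 at 48 h, where 7.63% of all genes were. HIF1A, the oxygen-regulated subunit, was at 51.1 to 55.6 TPM at 48 h against 31.9 to 62.8 TPM, a change of 0.16 ± 0.24 (limma adjusted p = 0.772). EPAS1 (HIF-2α) rose from 0.34 to 0.64 TPM in untreated cells to 2.63 to 4.26 TPM, a change of 1.52 ± 0.43 (limma adjusted p = 0.0393), and remained a low transcript. RBX1, a ring-finger subunit of the ubiquitin ligase that removes HIF, fell by 1.05 on the log2 scale (limma adjusted p = 0.00541). HIF is regulated mainly through the stability of its protein, which was not measured.

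Downstream of pyruvate, 14 genes were tested, of which 0 rose and 3 fell at 1.25 µM, where 6.36% of all genes fell, with a median of -0.54. These were PDK3 (-1.11), a pyruvate dehydrogenase kinase, PDP1 (-0.63), the opposing phosphatase, and CS (-0.64), citrate synthase. At 48 h PDP1 fell (-1.11, limma adjusted p = 0.00211), with 9.38 to 10.2 TPM against 20.2 to 25.1 TPM. In the pentose phosphate pathway 1 of 9 fell at 1.25 µM (TKT, -0.82) and 1 of 9 at 48 h (PRPS1, -1.22), where 6.36% and 5.68% of all genes fell. Of 10 other glycolytic or gluconeogenic isoforms tested, 1 rose and 0 fell at 0.63 µM and 24 h (1.36% and 0.824% of all genes). At 48 h 1 rose and 1 fell (1.95% and 5.68% of all genes). The gene that rose was PCK2, the mitochondrial phosphoenolpyruvate carboxykinase, at both times (1.52 at 24 h and 1.17 at 48 h). In glycogen metabolism 0 of 11 and among other transporters 0 of 7 were called by limma in any comparison.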

How the data were processed

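Per the labels' protocols, A375 cells were plated overnight before IMD-0354 was added, and libraries were made with a QuantSeq 3′ kit (FWD). The tools named, per the submitters' processing notes and without their roles, are RSEM 1.3.1, STAR 2.7, DESeq2 and cutadapt 1.18, and the build is not given in the sources used here. Values are TPM as the authors deposited them, for 60504 Ensembl genes, with column sums of 999999.1 to 1000000.5. TPM keeps no read counts, so depth is unknown and no count test was made. TPM is divided by transcript length, which a 3′ library does not need, so levels of different genes compare poorly.

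A gene was kept if 3 or more libraries reached 1 TPM (14936 genes), and log2(TPM + 1) was fitted with limma 3.58.1 (R 4.3.3, statmod 1.5.0), a mean per group over all 18 libraries, and a mean-variance trend (12 residual and 4.16 prior degrees of freedom). Fold changes are on that scale and understate those of low genes. In all, 8 comparisons were made, two-sided, and genes were called at a Benjamini-Hochberg adjusted p under 0.05 over all genes. On simulated data, 35% and 83% of genes changed by 1 and 2 log2 units were recovered in the 48 h comparison, with 8 of 126 calls false over 14936 genes. The simulation drew genes independently from normal distributions and changed 200 genes with a mean log2(TPM + 1) above 2. It held no libraries that stand apart together across genes, so these rates need not hold for the real calls. Coordinates of exons are GENCODE 29 (GRCh38), and promoters came from RefSeq, matched by symbol for 32 members. Pseudogenes of 11 members summed to at most 5.26 TPM.

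All 38 members are named; full values go to those called in a dose comparison, their isoform partners and the most abundant of their role. From related lists up to 4 called genes with the largest change are named; HIF1A, ZNF395, FUT11, and members given as not called beyond that rule, were added after values were seen. The members and lists were chosen with earlier results of these data known. The alternatives, 32 per result at most, covered scaling, filter, pseudocount, model and libraries left out.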

Additional observations from a re-analysis of the deposited data

How the results depend on the processing

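Members called, of 37 tested by limma, ranged over leaving out each library from 5 to 10 at 48 h (7 with all libraries), from 2 to 5 at 1.25 µM (3 with all), and from 0 to 1 at 0.63 µM and for both dose steps (0 with all). They stayed at 0 for 0.32 µM, for the difference between times and for untreated cells over time. Library weights gave 12, 5 and 2 at 48 h, 1.25 µM and 0.63 µM, and 1 for the difference between times. A filter of 5 TPM gave 2 at 0.63 µM, and fitting the compared groups alone gave 1 at 1.25 µM. Without untreated 24 h replicates 2 and 3 the count at 48 h was 11. Without untreated 24 h replicate 2 and untreated 48 h replicate 3, an alternative chosen after seeing the data, it was 2 at 0.63 µM, 2 from 0.32 to 0.63 µM and 1 from 0.63 to 1.25 µM.

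Deviations from group means correlated by -0.0927 to 0.115 between libraries of the same replicate number (median 0.0261) and by a median of -0.0172 otherwise. Correlations this weak do not settle whether replicate numbers pair the samples. A replicate block gave 8 members at 48 h, 4 at 1.25 µM and 0 in the other 6 comparisons. Over all genes at 48 h it called 322 higher and 950 lower, against 291 and 849 in the main analysis.

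The sign of the members called in the main analysis turned under none of the alternatives in the comparison of their call. Of all 37 members, up to 12 turned at 0.32 µM, 5 at 0.63 µM, 9 at 1.25 µM and 7 at 48 h, the last under median-of-ratios scaling. Among them were TPI1, GAPDH and ENO1. Without untreated 24 h replicate 2, alone or with untreated 48 h replicate 3, TPI1, GAPDH and ENO1 were at -0.061, -0.034 and -0.11 at 0.32 µM, at -0.41, -0.057 and -0.30 at 0.63 µM, and at -0.56, -0.16 and -0.27 at 1.25 µM, the lowest values with 1 library left out. The highest, without untreated 24 h replicate 3, were 0.88, 2.19 and 0.59, then 0.53, 2.17 and 0.39, then 0.38, 2.07 and 0.42. Without untreated 24 h replicates 2 and 3, TPI1 was at -0.29 and -0.44 at 0.63 and 1.25 µM, and ENO1 at -0.052, -0.25 and -0.21 at the 3 doses. Library weights gave TPI1 -0.17 and -0.32 and ENO1 -0.13 and -0.11 at 0.63 and 1.25 µM. TPI1 at 1.25 µM was -0.025 on TPM recomputed without the 4 chromosome 21 transcripts and -0.09 without 1.25 µM replicate 2. GAPDH at 48 h was 0.070, 0.13 and 0.0021 under median-of-ratios scaling, quantile normalization and library weights, and ranged from -0.35 to 0.084 with 1 library left out, the ends being without untreated replicates 1 and 2. The cause was not tested.

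Over all genes, calls over the alternatives ranged from 557 to 2312 at 48 h (1140 in the main analysis), 171 to 1783 at 1.25 µM (1688), 0 to 490 at 0.63 µM (326), 0 to 14 at 0.32 µM (4), 0 to 228 and 0 to 445 for the dose steps (83 and 226), 0 to 151 for the difference between times (5) and 0 to 6 for untreated cells over time (2). The 0 at 0.63 µM and the 171 come from fitting the compared groups alone. Unknown depth limits the low genes, CA9, ALDOC, EGLN3 and PFKFB2 to PFKFB4, for which no counting error can be given.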

Other observations

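Among the 38 members the coefficient of variation over all 18 libraries ran from 8.77% for LDHB to over 100% for ALDOC, CA9 and EGLN3, whose levels are near 0. After LDHB the steadiest were GPI (13.4%), HK1 (13.7%) and PGK1 (16.8%). GAPDH, a transcript often used as a reference, was at 32.4%, and at 21.7% without untreated 24 h replicate 2. Of the genes with a median of at least 100 TPM (1042 in all), 35 were under 0.5 of the lowest other library in untreated 24 h replicate 2, and between 0 and 6 were in each of the other libraries. In that library 28 genes were over 2 times the highest other library, and 0 were in the others.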
